A study of Homo sapiens with 20 samples.

Results

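The class II transactivator CIITA, the 3 RFX subunits RFX5, RFXAP and RFXANK, the invariant chain CD74 and the peptide-loading genes HLA-DMA, HLA-DMB, HLA-DOA and HLA-DOB were followed at the RNA level in cell lines grown with or without a proteasome inhibitor. These 9 genes, of 18305 genes with RNA values, were taken by gene symbol as the regulators and loading chaperones of the MHC class II pathway. They were picked with the RNA differences of these same libraries already known. Their own differences are therefore given as a description. No p-value is printed for them, and where members are counted as called, the count describes them and tests nothing.

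Libraries came from 4 lines (ARH-77, RPMI-8226, L363 and AMO1), each as wild type (WT) and as a bortezomib-resistant derivative (BtzR). AMO1 and L363 were also sequenced as carfilzomib-resistant derivatives (CfzR), which makes 10 groups of 2 biological replicates, or 20 libraries. AMO1, L363 and RPMI-8226 are multiple myeloma lines, which descend from malignant plasma cells, and ARH-77 is a B-lymphoblastoid line. BtzR and CfzR cells were kept in 90 nM bortezomib or carfilzomib, drugs that block the proteasome, whereas WT cells were grown in the same medium without a drug named for them. Long-term resistance and the presence of the drug therefore cannot be told apart, and the labels do not say whether a resistant line is a single clone. Values are FPKM, fragment counts scaled to the length of the transcript and the size of the library. Genes can be set side by side within a library. The sum of FPKM differs from library to library, so comparisons between libraries are approximate. Scaling each library to the same sum was among the alternative settings, and it changed some differences and calls, as given below.

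MHC class II molecules carry peptides from the endocytic route to the cell surface, where CD4+ T cells read them. CIITA does not bind DNA itself. It is recruited to an assembly of RFX, CREB and NF-Y on the X and Y boxes of class II promoters, and its own abundance usually sets how much class II is made. The invariant chain CD74 fills the peptide groove and leads new class II molecules into endosomes, HLA-DM (HLA-DMA with HLA-DMB) removes the last fragment of CD74 and edits peptides, and HLA-DO (HLA-DOA with HLA-DOB) inhibits HLA-DM. CIITA is commonly silenced when a B cell becomes a plasma cell.

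RFX and NF-Y are known to act at X and Y boxes of class II promoters, so the stretches of 4 member promoters that hold such letters are shown first. RefSeq promoters (GRCh38.p14, 250 bases before to 50 after a gene's start) were at hand for 8 of the 9 genes, CIITA being the one without an entry. An X core was searched as CCNAGNNAC and a Y box as ATTGG, both on either strand, with letters that were chosen after member promoters had been read. The 2 patterns do not overlap in the windows below, which are printed 5′ to 3′ on the gene's strand with the X core and the Y box in capitals.
CD74, chr5:150412949-150413004, minus strand: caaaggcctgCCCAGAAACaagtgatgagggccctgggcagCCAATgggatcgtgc
HLA-DMA, chr6:32953162-32953223, minus strand: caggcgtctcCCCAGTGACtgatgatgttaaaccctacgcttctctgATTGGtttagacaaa
HLA-DMB, chr6:32941036-32941129, minus strand: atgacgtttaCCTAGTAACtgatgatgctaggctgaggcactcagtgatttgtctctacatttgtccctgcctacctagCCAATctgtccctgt
HLA-DOA, chr6:33009644-33009705, minus strand: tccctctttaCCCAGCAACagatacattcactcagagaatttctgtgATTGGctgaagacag

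In CD74, HLA-DMA and HLA-DOA the Y box followed the X core after 22, 28 and 28 bases, and in HLA-DMB the next match lay 60 bases on. An X core stood in the promoters of 19.5% of 27305 genes and a Y box in those of 39.7%, whereas an X core with a Y box 20 to 50 bases on stood in 1.02%. The same pair was found in 1 of the 8 class II chain genes that have an entry. HLA-DOB held 2 Y boxes and no X core, RFX5 held 1 X core and 2 Y boxes without the pair in 1 of its 3 listed promoters, and RFXAP and RFXANK held neither. A match is a run of letters in a window, and no binding was measured here.

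The libraries held 10455 to 11023 genes at 1 FPKM or more, and replicates of a group correlated at r = 0.986 to 0.998 across tested genes. The libraries labelled AMO1 CfzR stood apart from their label. They correlated at 0.986 to 0.992 with L363 libraries but at 0.878 to 0.883 with the other AMO1 libraries, so they were set against both WT lines. The plasma cell markers as a sum fitted the myeloma label, with 8 genes such as SDC1 and TNFRSF17 summing to 1191 to 4175 FPKM in myeloma WT libraries and to 344 to 348 FPKM in ARH-77 WT. SLAMF7, a gene of that list, was nevertheless under 1 FPKM in RPMI-8226 WT and BtzR. The mature B cell genes MS4A1, CD22 and PAX5 had group means under 1 FPKM in all myeloma groups. CD79B and BLNK, of the same list, reached 1 FPKM in each myeloma group, except CD79B in RPMI-8226 BtzR. The 6 genes of that list summed to 10.7 to 58.5 FPKM in myeloma WT libraries and to 420 to 516 FPKM in ARH-77 WT. The 8 myeloid or dendritic markers, which stand for other cells that carry class II, summed to between 3.93 and 20.4 FPKM over all libraries, and the 4 T cell markers to between 0.45 and 12.8 FPKM.

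CIITA ranged over 162-fold between groups. In AMO1 WT it stood at 9.17 and 6.48 FPKM, and in AMO1 BtzR at 98.6 and 96.1 FPKM. It was thus 12.4 times higher in the resistant cells by group means (7.83 ± 1.90 against 97.3 ± 1.81 FPKM, SD, n = 2), and no library of one group came near the other. In RPMI-8226 the order was the opposite, with 3.18 and 3.20 FPKM in WT and 0.63 and 0.57 FPKM in BtzR, 5.32 times lower. L363 WT held 7.45 and 8.40 FPKM, L363 BtzR 3.29 and 4.43 FPKM, and L363 CfzR 2.51 and 3.72 FPKM. Both resistant L363 groups lay below their WT in each library, and they overlapped each other. ARH-77 held 66.2 and 47.6 FPKM in WT and 57.1 and 65.5 FPKM in BtzR, values that overlap. The libraries labelled AMO1 CfzR, at 6.81 and 6.43 FPKM, overlapped AMO1 WT and lay just below L363 WT.

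In order of level, AMO1 BtzR stood highest, above both ARH-77 groups, which overlapped each other. The WT groups of L363 and AMO1, with means of 7.93 and 7.83 FPKM, overlapped, and RPMI-8226 WT, with a mean of 3.19 FPKM, overlapped L363 CfzR. RPMI-8226 BtzR stood lowest, apart from every other group. The table gives 1 value per gene, so the transcripts that start at the separate dendritic, B cell and interferon promoters of CIITA could not be told apart.

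**Figure D1:**
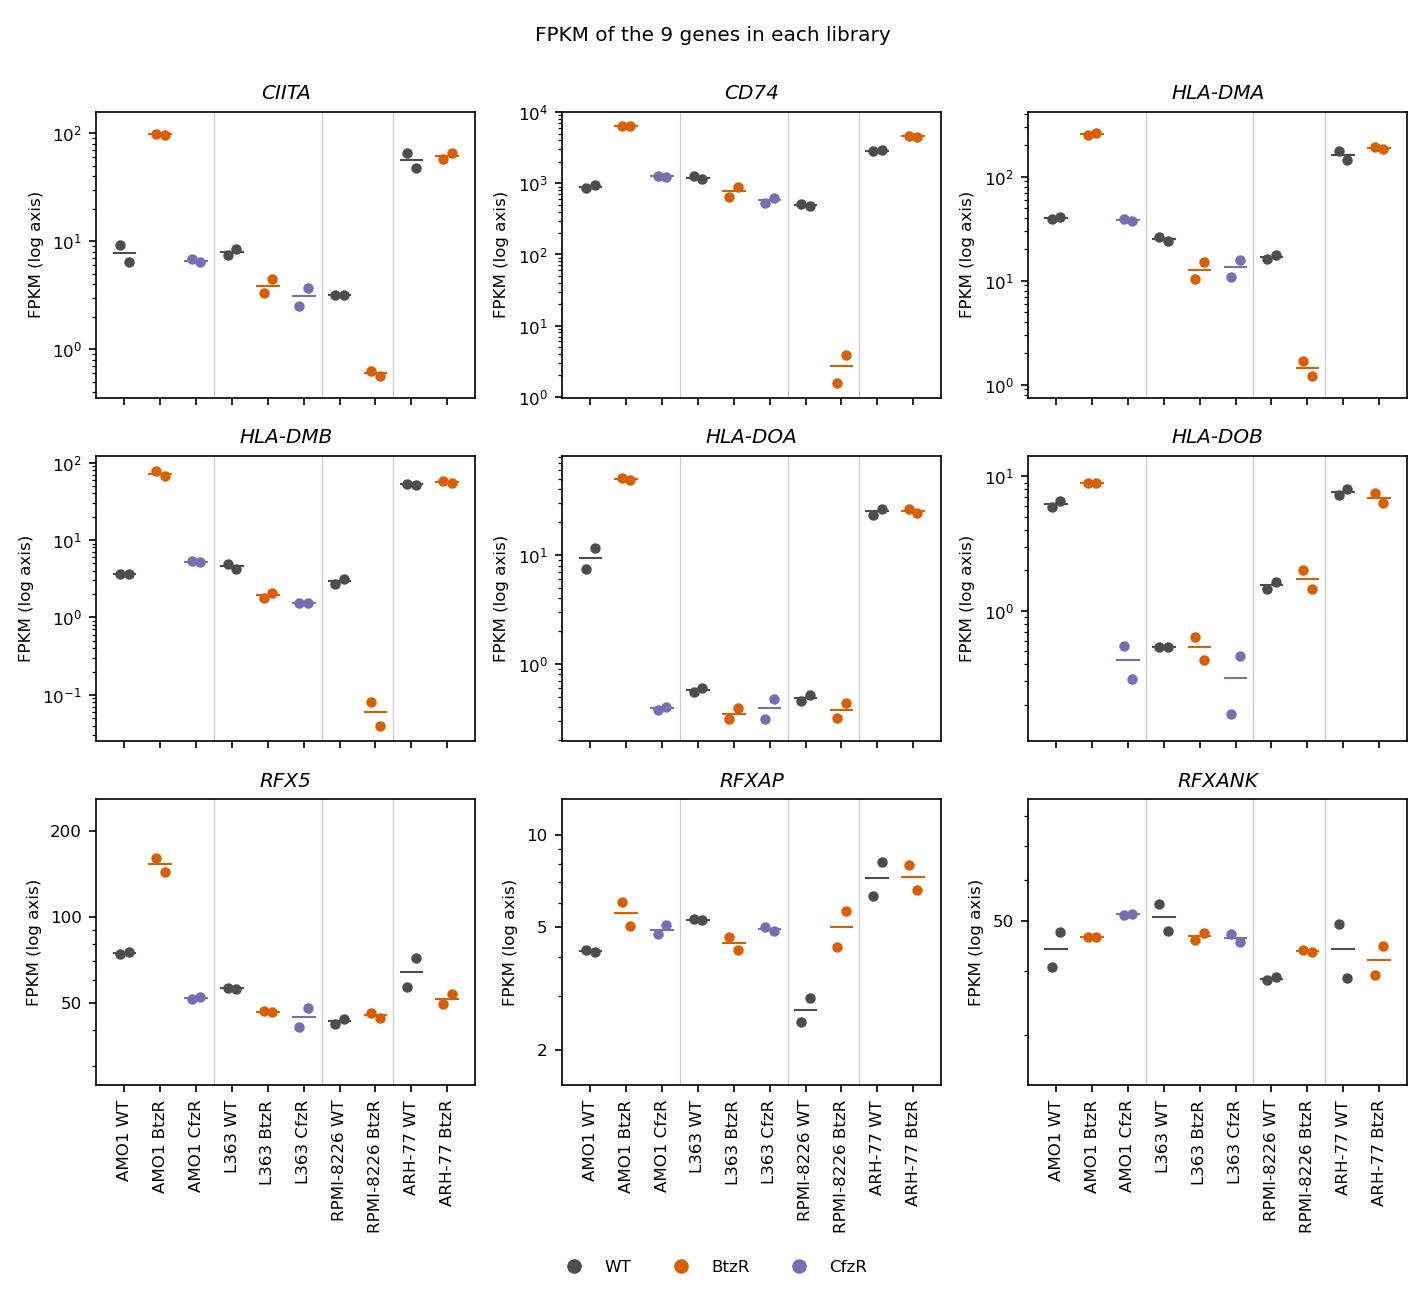
FPKM of each of the 9 genes (vertical log axis, a separate scale per gene) in the 10 groups (horizontal axis), with 1 point per library and a short line at the mean of the 2 replicates; grey is WT, orange BtzR and violet CfzR. CIITA, CD74, HLA-DMA and HLA-DMB are highest in AMO1 BtzR and lowest in RPMI-8226 BtzR, whereas RFXANK stays between 38.4 and 53.8 FPKM in all 20 libraries.

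RFX5, the DNA-binding subunit of RFX, varied less. It stood at 73.9 and 75.1 FPKM in AMO1 WT and at 161 and 144 FPKM in AMO1 BtzR, 2.04 times higher. The other 8 groups had means between 43.0 and 64.1 FPKM. In L363, WT libraries held 56.4 and 56.0 FPKM against 46.7 and 46.2 in BtzR and 41.1 and 48.1 in CfzR, so both resistant groups lay slightly below WT. RPMI-8226 gave 42.1 and 43.9 FPKM in WT and 46.2 and 44.2 FPKM in BtzR, and ARH-77 56.8 and 71.5 FPKM in WT and 49.4 and 53.7 FPKM in BtzR. RFX5 in RPMI-8226 BtzR therefore stood slightly above its WT in the same cells in which CIITA stood 5.32 times below its own.

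RFXAP, the RFX-associated protein, was the least abundant of the RFX genes, with group means from 2.70 FPKM in RPMI-8226 WT to 7.28 FPKM in ARH-77 BtzR. RPMI-8226 gave its clearest difference, from 2.46 and 2.94 FPKM in WT to 4.33 and 5.66 FPKM in BtzR, 0.69 ± 0.13 higher on the log2(FPKM + 1) scale. AMO1 BtzR, at 6.04 and 5.06 FPKM, stood above AMO1 WT at 4.23 and 4.17 FPKM. RFXANK, the ankyrin-repeat subunit, spanned only 1.33-fold between group means, from 38.7 FPKM in RPMI-8226 WT to 51.5 FPKM in the libraries labelled AMO1 CfzR. In AMO1 it read 40.7 and 47.5 FPKM in WT and 46.5 and 46.4 FPKM in BtzR, and those libraries overlapped.

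CD74 had the widest range of the 9 genes, 2312-fold between groups. It was at 851 and 938 FPKM in AMO1 WT and at 6328 and 6320 FPKM in AMO1 BtzR, 7.07 times higher. It was at 507 and 487 FPKM in RPMI-8226 WT and at 1.55 and 3.92 FPKM in RPMI-8226 BtzR, 182 times lower. By abundance within a library, CD74 moved from place 90 and 89 to place 2 in both replicates of AMO1 BtzR, where it made up 1.30% and 1.29% of the summed FPKM. In RPMI-8226 it moved from place 134 and 132 to place 10160 and 8611. The 2 RPMI-8226 BtzR replicates differed by 0.95 on the log2 scale, small beside the difference between the groups.

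In L363, CD74 was at 1248 and 1138 FPKM in WT, at 649 and 901 FPKM in BtzR and at 536 and 612 FPKM in CfzR. Each resistant library lay below both WT libraries. ARH-77 held 2841 and 2917 FPKM in WT and 4615 and 4500 FPKM in BtzR, which was 0.66 ± 0.21 higher (log2 difference ± SE) and short of the fold required for a call. CD74 was thus higher in both libraries of ARH-77 BtzR although CIITA there overlapped its WT. The libraries labelled AMO1 CfzR, at 1281 and 1240 FPKM, lay above AMO1 WT and overlapped L363 WT.

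HLA-DMA and HLA-DMB, the chains of the peptide editor, rank the groups much as CIITA does. HLA-DMA stood at 39.3 and 41.3 FPKM in AMO1 WT and at 249 and 262 FPKM in AMO1 BtzR, 6.34 times higher. HLA-DMB stood at 3.68 and 3.66 FPKM in AMO1 WT and at 76.9 and 67.1 FPKM in AMO1 BtzR, 19.6 times higher, the largest ratio of the 9 genes in that line. Because the chains differed in size of change, the level of HLA-DMA over that of HLA-DMB went from 10.7 and 11.3 in AMO1 WT to 3.23 and 3.91 in AMO1 BtzR. The same quotient was 3.37 and 2.83 in ARH-77 WT.

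In RPMI-8226, HLA-DMA went from 16.1 and 17.8 FPKM in WT to 1.68 and 1.2 FPKM in BtzR, 11.8 times lower. HLA-DMB went from 2.72 and 3.13 FPKM to 0.08 and 0.04 FPKM, 48.8 times lower by group means. Near 0 the added 1 FPKM shrinks a difference, so HLA-DMB differed by only −1.89 ± 0.09 on the log2(FPKM + 1) scale, and CIITA, at 5.32 times lower, by −1.39 ± 0.18. Ratios of values this small are imprecise. In L363, HLA-DMA read 26.3 and 24.1 FPKM in WT, 10.4 and 15.0 FPKM in BtzR and 11 and 15.9 FPKM in CfzR. HLA-DMB read 4.94 and 4.28 FPKM in WT, 1.80 and 2.07 FPKM in BtzR and 1.52 and 1.53 FPKM in CfzR. Both chains were lower than WT in each of the 4 resistant L363 libraries.

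ARH-77 held both DM chains at a high level, HLA-DMA at 178 and 146 FPKM in WT and 195 and 186 FPKM in BtzR, and HLA-DMB at 52.8 and 51.4 FPKM in WT and 57.1 and 55.0 FPKM in BtzR. The BtzR libraries were the higher ones for both chains, by 0.24 ± 0.17 and 0.10 ± 0.09 on the log2 scale. The libraries labelled AMO1 CfzR held 39.5 and 37.8 FPKM of HLA-DMA, which overlaps AMO1 WT and lies above L363 WT, and 5.30 and 5.23 FPKM of HLA-DMB, which lies above both.

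HLA-DOA and HLA-DOB, the chains of the inhibitor, split the lines in another way. HLA-DOA stood at 7.40 and 11.5 FPKM in AMO1 WT, at 51.2 and 48.7 FPKM in AMO1 BtzR, and at 23.5 and 26.7 FPKM in ARH-77 WT. In all L363 and RPMI-8226 libraries it lay between 0.31 and 0.60 FPKM. HLA-DOB stood at 5.96 and 6.54 FPKM in AMO1 WT, at 8.94 and 8.91 FPKM in AMO1 BtzR, and at 7.25 and 8 FPKM in ARH-77 WT. It was at 1.46 and 1.65 FPKM in RPMI-8226 WT and between 0.17 and 0.64 FPKM in L363. HLA-DO was thus carried by AMO1 and ARH-77, in which both chains exceeded 5 FPKM in every library of WT and BtzR.

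In AMO1 BtzR, HLA-DOA was 5.29 times and HLA-DOB 1.43 times above WT. The level of HLA-DMB over that of HLA-DOB went from 0.617 and 0.560 in AMO1 WT to 8.6 and 7.53 in AMO1 BtzR. The 2 beta chains thus changed places in order of abundance. In RPMI-8226 BtzR, HLA-DOB read 2.01 and 1.45 FPKM and overlapped its WT, while HLA-DMB stood near 0, so the same quotient went from 1.86 and 1.90 to 0.0398 and 0.0276. HLA-DOA read 0.32 and 0.44 FPKM there, just below WT at 0.46 and 0.52 FPKM. RefSeq places TAP2, PSMB8, TAP1 and PSMB9, which serve class I presentation, between HLA-DOB and HLA-DMB on chromosome 6, and only BRD2 between HLA-DMA and HLA-DOA.

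The libraries labelled AMO1 CfzR held HLA-DOA at 0.38 and 0.40 FPKM and HLA-DOB at 0.55 and 0.31 FPKM. Against AMO1 WT these are differences of −2.88 ± 0.14 and −2.35 ± 0.13 on the log2 scale. Against L363 WT, at 0.55 and 0.60 FPKM of HLA-DOA and 0.54 in both libraries for HLA-DOB, they are −0.18 ± 0.14 and −0.11 ± 0.13. In ARH-77 BtzR, HLA-DOA at 26.5 and 24.4 FPKM and HLA-DOB at 7.5 and 6.35 FPKM overlapped their WT.

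Across the whole table, a gene was called changed at a Benjamini-Hochberg adjusted p under 0.05 in limma with an absolute log2 difference of at least 1. Of the 13089 genes tested, which include all 9 members, 4.61% were called higher and 4.57% lower in AMO1 BtzR. Among the members, 6 were called higher and 0 lower there, namely CIITA, CD74, HLA-DMA, HLA-DMB, HLA-DOA and RFX5. RFX5, at 1.02 ± 0.10, stood just inside the fold threshold, and HLA-DOB, at 0.45 ± 0.13, was the next below it. When each AMO1 library was left out in turn, RFX5 ranged from 0.94 to 1.10 and the members called from 5 to 6, with 5 without replicate 1 of AMO1 BtzR. With each library scaled to the same sum, RFX5 was at 0.98 and 5 members were called. In RPMI-8226 BtzR, where 5.91% of genes were called higher and 7.92% lower, 0 members were called higher and 4 lower, namely CIITA, CD74, HLA-DMA and HLA-DMB. These shares stand beside the counts as background only, because the members were chosen with these comparisons known.

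In L363 CfzR, 1.11% of genes were called higher and 0.825% lower. Of the members 0 were higher and 3 lower, CIITA (−1.13 ± 0.18), CD74 (−1.06 ± 0.21) and HLA-DMB (−1.15 ± 0.09). HLA-DMA stood at −0.88 ± 0.17, just outside. Without replicate 1 of L363 CfzR the count was 1. In L363 BtzR, with 1.02% and 1.05% of genes called higher and lower, 0 members were called. CIITA (−0.88 ± 0.18), CD74 (−0.64 ± 0.21), HLA-DMA (−0.95 ± 0.17) and HLA-DMB (−0.93 ± 0.09) all pointed down there. Leaving out replicate 2 of L363 BtzR gave 3 calls, leaving out replicate 2 of L363 WT gave 2, and a pseudocount of 0.1 gave 3. The 2 L363 comparisons share their WT libraries, as do those of AMO1.

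In ARH-77 BtzR, with 0.955% and 0.649% of genes called higher and lower, 0 members were called. Without replicate 1 of ARH-77 WT the balance over all genes turned from 125 higher and 85 lower to 144 higher and 199 lower. For the libraries labelled AMO1 CfzR the reference decided the picture. Against AMO1 WT, where 7.88% and 9.21% of genes were called higher and lower, 0 members were called higher and 2 lower (HLA-DOA and HLA-DOB). Against L363 WT, where the shares were 0.856% and 0.802%, 0 members were called. The highest member difference there was that of HLA-DMA, 0.60 ± 0.17.

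**Figure D2:**
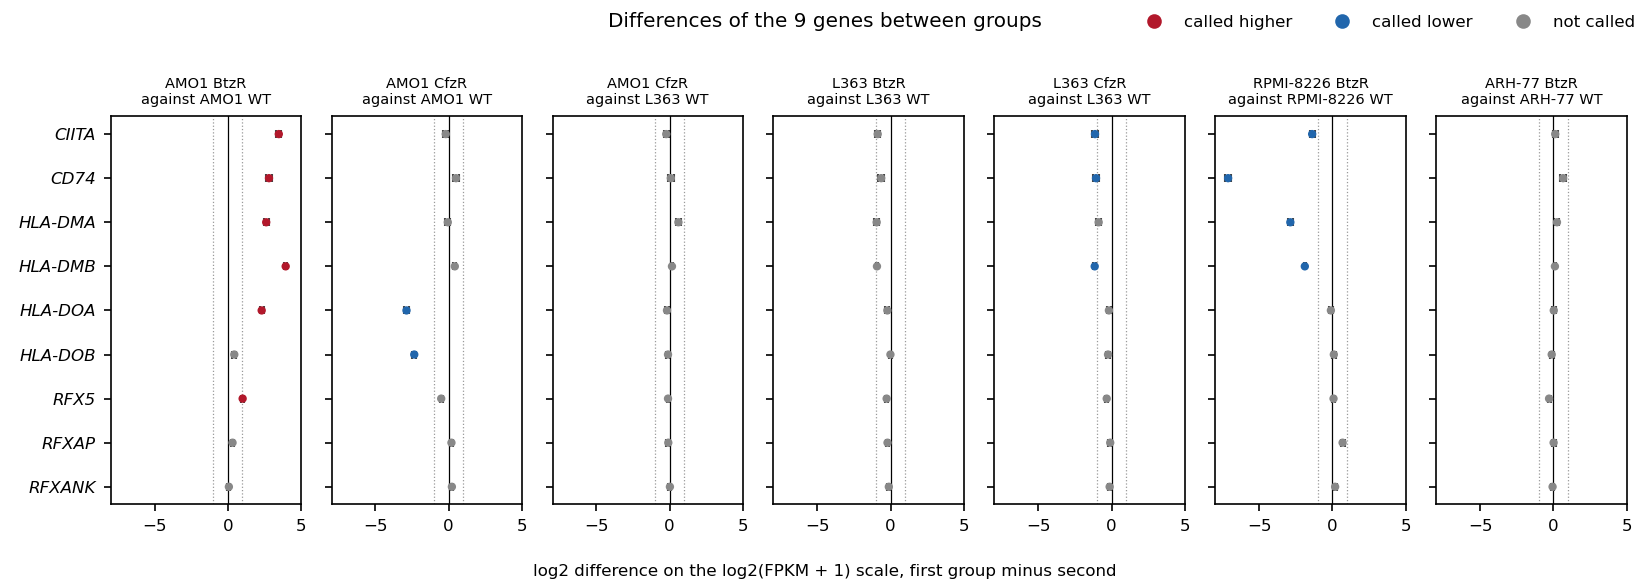
Log2 differences of the 9 genes (rows) in the 7 comparisons (panels), first group minus second on the log2(FPKM + 1) scale; bars, about as wide as the points, are the SE of the limma fit and dotted lines mark an absolute difference of 1. Red and blue mark genes called higher or lower. The differences run from −7.13 for CD74 in RPMI-8226 BtzR to 3.96 for HLA-DMB in AMO1 BtzR. All 9 genes lie below 0 in L363 BtzR and L363 CfzR, which share their WT libraries. Some do so by less than their SE, such as HLA-DOB in BtzR (−0.01 ± 0.13) and RFXAP in CfzR (−0.09 ± 0.13).

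Over the 10 group means, CIITA levels on the log2 scale ran closest to those of HLA-DMB (Pearson r = 0.992) and HLA-DMA (r = 0.969), followed by HLA-DOA (r = 0.917), CD74 (r = 0.800), HLA-DOB (r = 0.766), RFX5 (r = 0.694) and RFXAP (r = 0.652). RFXANK showed no such relation (r = −0.029). The chains of HLA-DO ran together (r = 0.947). These values describe 10 points from 4 lines, of which AMO1 BtzR, the ARH-77 groups and RPMI-8226 BtzR lie far out, and they carry no p-value. CD74 left the common line at the low end. The level of CD74 over that of CIITA was 159 and 152 in RPMI-8226 WT but 2.46 and 6.88 in RPMI-8226 BtzR, whereas it lay between 42.9 and 213 in all other libraries.

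**Figure D3:**
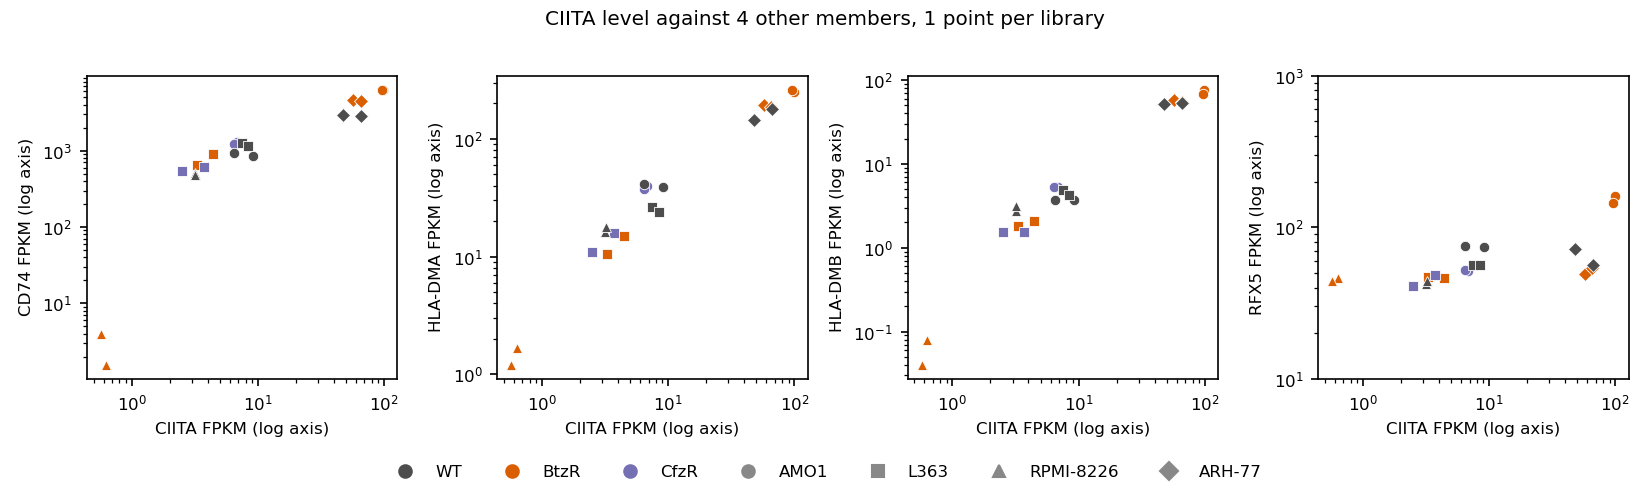
FPKM of CD74, HLA-DMA, HLA-DMB and RFX5 (vertical log axes) against FPKM of CIITA (horizontal log axis) with 1 point per library; colour gives WT, BtzR or CfzR and shape the cell line. The RPMI-8226 BtzR libraries, at 0.63 and 0.57 FPKM of CIITA, lie at the lower left for CD74, HLA-DMA and HLA-DMB, whereas their RFX5 levels lie beside those of RPMI-8226 WT.

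Among all tested genes, those most like CIITA over the 10 groups were HLA-DPB1 (r = 0.994), FAM92A (0.981), HLA-DQA1 (0.980), PFDN4 (0.972) and HLA-DRB1 (0.971). CD74 was most like HLA-DRA (0.980), then CDKN3 (0.975), ANKRD49 (0.972), RBM12B (0.967) and ELMO2 (0.964). HLA-DMB was likewise closest to HLA-DPB1 (0.986), before DYNC2LI1 (0.980), MANBAL (0.976) and FLYWCH2 (0.963). The genes nearest to RFX5 included no class II gene and began with MYADML2 (0.981), CLEC11A (0.968), ZNF608 (0.965), MAIP1 (0.963) and GOLGA8Q (0.960). Each r rests on 10 points and was ranked over 13089 genes, and nothing about shared function or control follows from it.

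The class II chains, the molecules that the members serve, were read from the same fit, from a list drawn up with their differences known, so that its counts are no independent evidence. Of 11 chain genes in the list, 8 were called higher and 1 lower in AMO1 BtzR, with a list median of 3.02 against −0.002 over all tested genes. HLA-DRA, the constant chain of HLA-DR, rose from 218 and 223 FPKM to 1803 and 1688 FPKM (2.98 ± 0.18, adjusted p = 6.3e-09). HLA-DRB3 rose by 3.97 ± 0.12 (adjusted p = 7.7e-12), HLA-DQA1 by 3.94 ± 0.16 (adjusted p = 9.9e-11) and HLA-DRB1 by 3.79 ± 0.20 (adjusted p = 2.2e-09). HLA-DQA2 was the gene called lower (−3.61 ± 0.20, adjusted p = 3e-09), from 14.9 and 14.7 FPKM to 0.39 and 0.20 FPKM. HLA-DQA2 shares much of its sequence with HLA-DQA1, as the HLA-DRB genes do with one another, so the split of fragments between such genes is uncertain.

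In RPMI-8226 BtzR, 9 of the 11 chain genes were called lower and 0 higher, with a median of −1.17 against 0.052. HLA-DRA fell from 80.8 and 99.9 FPKM to 0.35 and 0.85 FPKM (−5.85 ± 0.18, adjusted p = 9e-13), and HLA-DRB1 and HLA-DPA1 stood at −3.77 and −2.82. In L363, 7 chain genes were called lower in CfzR and 5 in BtzR, with 0 higher in either. HLA-DRA fell by 1.06 ± 0.18 in CfzR (adjusted p = 0.00097) and by 1.14 ± 0.18 in BtzR (adjusted p = 0.00046), where the others called were HLA-DRB5, HLA-DPB1, HLA-DQA1 and HLA-DQA2. HLA-DQA1 was the largest difference in both, −1.78 ± 0.16 in CfzR and −1.74 ± 0.16 in BtzR (adjusted p = 2.4e-06 in each). In ARH-77 BtzR limma called 0 chain genes and 1 had an unadjusted p under 0.05, beside 0.955% and 0.649% of all tested genes called higher and lower. For the libraries labelled AMO1 CfzR, 1 chain gene was called higher and 4 lower against AMO1 WT, and 0 were called against L363 WT, where 5 had an unadjusted p under 0.05. HLA-DRB5 was the one higher (3.48 ± 0.17, adjusted p = 1.8e-10). HLA-DRB3 was lower, at a listed 0 and 0.06 FPKM against 20.4 and 29.8 FPKM in AMO1 WT (adjusted p = 2e-13). The other lower genes were HLA-DRB4, HLA-DQA1 and HLA-DQA2. L363 WT read 0 and 0.03 FPKM of HLA-DRB3 and 24.7 and 25.4 FPKM of HLA-DRB5, beside 36.9 and 40.1 FPKM of HLA-DRB5 in the libraries labelled AMO1 CfzR.

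Among the partners of the transactivator, only 1 call was made over the 7 comparisons. Of 14 genes for NF-Y subunits, CREB1, ATF1, histone acetyltransferases, deacetylases and related cofactors, limma called 0 in every comparison but AMO1 CfzR against AMO1 WT. The share of all tested genes called in a given direction ran from 0.649% to 9.21%, so few calls are likely for so short a list. At an unadjusted p under 0.05 there were 12 in AMO1 BtzR, 9 in RPMI-8226 BtzR, 7 in L363 BtzR, 2 in L363 CfzR and 0 in both ARH-77 BtzR and AMO1 CfzR against L363 WT. Log2 differences in these 6 comparisons stayed between −1.0 and 0.78. The 1 call was HDAC2, a histone deacetylase, lower in AMO1 CfzR against AMO1 WT (−1.24 ± 0.07, adjusted p = 5.1e-10). The ends of that range were both in AMO1 BtzR and, though not called, passed the adjusted p. ATF1, a factor related to CREB1, went from 19.7 and 16.7 FPKM to 9.56 and 7.66 FPKM (−1.0 ± 0.12, adjusted p = 8.5e-06), and the acetyltransferase gene EP300 from 12.2 and 10.5 FPKM to 20.2 and 19.9 FPKM (0.78 ± 0.09, adjusted p = 6.3e-06).

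Of 18 genes listed here as possible regulators of CIITA, 17 could be tested. In AMO1 BtzR 2 were called higher and 0 lower, beside 4.61% and 4.57% of all tested genes. One of them, SOCS1, an inhibitor of interferon-gamma signalling, rose from 0.32 and 0.18 FPKM to 2.97 and 2.12 FPKM (1.5 ± 0.19, adjusted p = 1.3e-05). IRF1, an interferon-induced activator of CIITA, read 9.09 and 9.06 FPKM in WT and 10.3 and 10.0 FPKM in BtzR (0.15 ± 0.10, adjusted p = 0.247). PRDM1, the plasma cell repressor of CIITA, read 22.5 and 30.2 FPKM in WT and 36.9 and 38.8 FPKM in BtzR, 0.52 ± 0.18 higher and not called (adjusted p = 0.0244). PAX5, which is lost in plasma cells, read 0.02 FPKM at most in AMO1.

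In RPMI-8226 BtzR, where 7.92% of all tested genes were called lower, the called gene of that list was SPI1, which encodes the factor PU.1. It fell from 20.3 and 22.5 FPKM to 0.24 and 0.08 FPKM (−4.27 ± 0.09, adjusted p = 2.3e-14). SPI1 was at or below 0.15 FPKM in all AMO1 and L363 libraries, the AMO1 BtzR libraries with the highest CIITA included. PRDM1 there went from 11.3 and 12.7 FPKM to 21.4 and 15.9 FPKM (0.58 ± 0.18, adjusted p = 0.0127, not called). In L363 BtzR, L363 CfzR and ARH-77 BtzR limma called 0 genes of the list, with 2, 5 and 6 at an unadjusted p under 0.05. The share of all tested genes called in a given direction ran from 0.649% to 1.11% in these comparisons. For the libraries labelled AMO1 CfzR, 3 were called higher (XBP1 and IRF8 among them) and 1 lower (IFNGR2) against AMO1 WT, with XBP1 at 3.20 ± 0.11 (adjusted p = 3.3e-12), and only IRF8 against L363 WT (1.09 ± 0.18, adjusted p = 0.0011). Of all tested genes, 7.88% were called higher and 9.21% lower against AMO1 WT, and 0.856% higher against L363 WT.

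CTSS encodes cathepsin S, the protease that trims CD74 before HLA-DM acts, and it was called lower where the members stood high as well as where they stood low. It fell in AMO1 BtzR from 28.2 and 31.6 FPKM to 5.74 and 3.44 FPKM (−2.49 ± 0.17, adjusted p = 3.3e-08), the cells in which CD74 stood highest. It fell in RPMI-8226 BtzR from 21.5 and 21.1 FPKM to 1.08 and 0.91 FPKM (−3.49 ± 0.17, adjusted p = 2.7e-10). It was also lower in L363 BtzR (−1.32 ± 0.17, adjusted p = 0.0001) and L363 CfzR (−1.22 ± 0.17, adjusted p = 0.00025), but not called in ARH-77 BtzR (0.40 ± 0.17, adjusted p = 0.149). CD44, a signalling partner of CD74, fell in AMO1 BtzR (−2.08 ± 0.12, adjusted p = 5e-09) and in RPMI-8226 BtzR (−1.09 ± 0.12, adjusted p = 2.3e-06).

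Of the 12 processing genes and CD74 partners, 0 were called higher and 2 lower in AMO1 BtzR, 2 higher and 2 lower in RPMI-8226 BtzR, and 1 lower in each L363 comparison. Of all tested genes, 4.61% were called higher and 4.57% lower in AMO1 BtzR, and 5.91% and 7.92% in RPMI-8226 BtzR. In L363, 1.05% were called lower in BtzR and 0.825% in CfzR. The 2 higher in RPMI-8226 BtzR were the endosomal protease gene LGMN (1.30 ± 0.11, adjusted p = 1.7e-07) and CD83 (1.34 ± 0.28, adjusted p = 0.00091), whose product keeps class II from being degraded. Limma called 0 in ARH-77 BtzR, with 3 at an unadjusted p under 0.05, beside 0.955% and 0.649% of all tested genes called higher and lower. Against AMO1 WT 4 were lower in the libraries labelled AMO1 CfzR (CD44, CTSS, LGMN and CD83), and against L363 WT 2, CTSS and CTSL. The shares of all tested genes called lower were 9.21% and 0.802% in the same order.

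The class I route, which presents peptides made by the proteasome, was read for comparison. Of 12 genes that include NLRC5, the class I transactivator, and B2M, limma called 0 in AMO1 BtzR, 0 in both L363 comparisons, 0 in ARH-77 BtzR and 0 in AMO1 CfzR against L363 WT. Those with an unadjusted p under 0.05 numbered 7 for AMO1 BtzR, 7 for L363 BtzR and 4 for each of the other 3. Of all tested genes, 4.61% were called higher and 4.57% lower in AMO1 BtzR. In the others the share called in a given direction ran from 0.649% to 1.11%, so few calls are likely for so short a list. In RPMI-8226 BtzR, PSMB9 (−1.82 ± 0.12, adjusted p = 1.1e-08) and PSMB8 (−1.21 ± 0.10, adjusted p = 8.3e-08), which encode immunoproteasome subunits, were called lower, and the list median was −0.75. Of all tested genes, 7.92% were called lower there. TAP1 and TAP2, their neighbours on chromosome 6, stood at −0.37 ± 0.11 and −0.74 ± 0.10 and were not called. HLA-F was lower in AMO1 CfzR against AMO1 WT (−1.77 ± 0.16, adjusted p = 2.7e-07), where 9.21% of all tested genes were called lower.

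**Figure D4:**
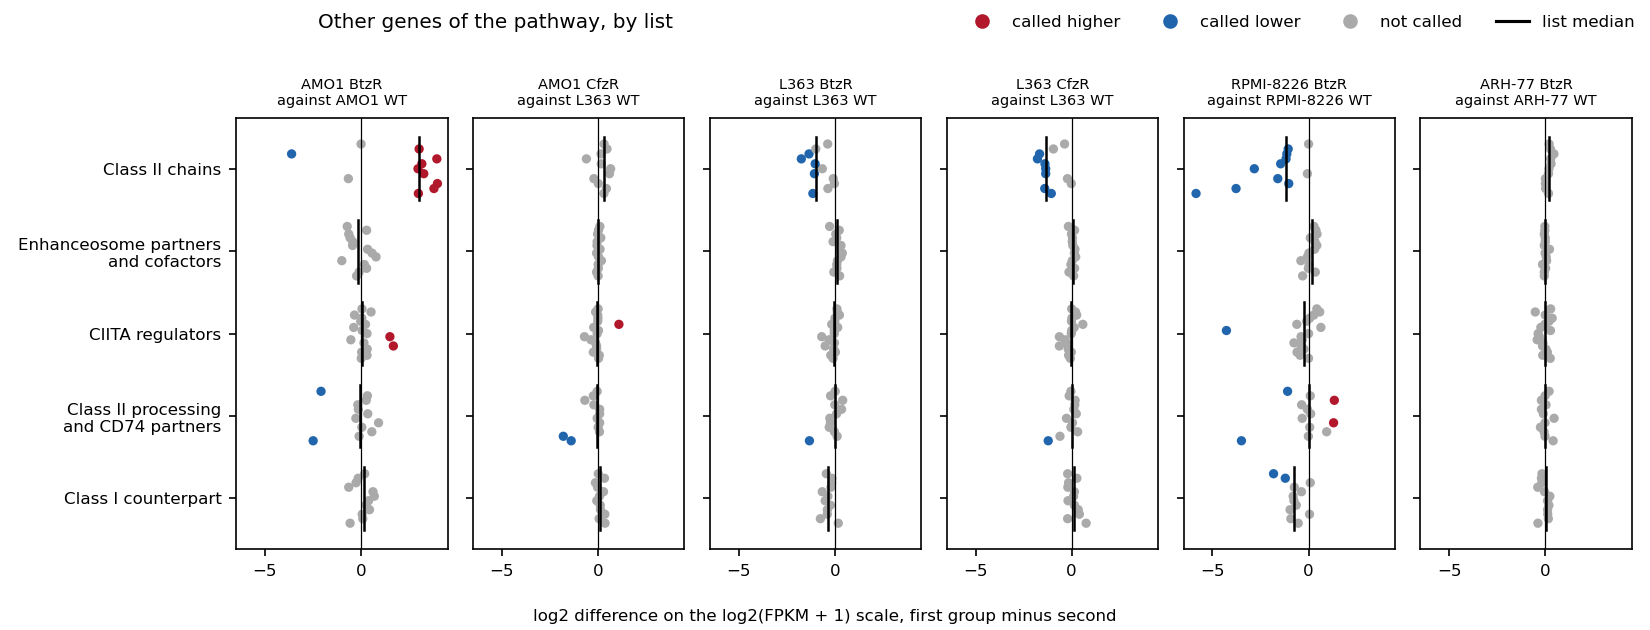
Log2 differences of 66 tested pathway genes other than the 9 members in 6 comparisons (panels), grouped by list (rows), on the log2(FPKM + 1) scale; each point is 1 gene, red and blue mark calls, and the black line is the list median. The class II chains have a median of 3.02 in AMO1 BtzR and −1.17 in RPMI-8226 BtzR, whereas the enhanceosome partners and cofactors stay between −1.0 and 0.78.

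Bulk values cannot tell fewer positive cells from less RNA per cell, so a level of 3.18 FPKM of CIITA may be spread over all cells or held by some. Mature B cell markers did not rise as a sum with the members in AMO1, the sum being 54.5 to 58.5 FPKM in WT and 34.7 to 35.6 FPKM in BtzR. MS4A1, CD22 and PAX5 were under 1 FPKM in both groups, whereas CD79B and BLNK reached 1 FPKM in both. Plasma cell markers summed to 3849 to 4175 FPKM in AMO1 WT and 2280 to 2539 FPKM in AMO1 BtzR, and to 1191 to 1232 and 852 to 915 FPKM in the same order in RPMI-8226. Mature B cell markers also summed to 36.1 to 40.1 FPKM in RPMI-8226 WT and 18.9 to 21.8 FPKM in BtzR, and the T cell markers to 8.38 to 12.8 FPKM in AMO1 WT and 1.39 to 1.99 FPKM in AMO1 BtzR. The part of these markers in the members' differences was not tested.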

How the data were processed

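BGI extracted RNA from frozen cell pellets, built the libraries and sequenced them on its BGISEQ-500 platform. The deposited table holds FPKM values, which the authors computed per gene and library and gave to 2 decimals. The submitters' processing notes name HISAT2 2.0.4, Bowtie2 2.2.5 and RSEM 1.2.12. The genome build is not given in the sources used here. Read depth is unknown, so no counting interval was computed, precision rests on 2 replicates, and a value of 0 means listed at 0.

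FPKM were transformed as log2(FPKM + 1), since FPKM are not counts, and fitted with limma 3.58.1 in R 4.3.3 with 1 mean per group over all 20 libraries (10 residual degrees of freedom) and a mean-variance trend. Genes entered the test, 13089 in all, if any group averaged 1 FPKM or more. A call needed a Benjamini-Hochberg adjusted p under 0.05 over all tested genes and an absolute log2 difference of at least 1. Of simulated data for AMO1 BtzR against AMO1 WT (13089 genes), the fit recovered 200 of 200 changed genes (log2 change 2) with 2 false calls.

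The members and lists were chosen with earlier results of these data known. Genes named are the 9 members, up to 4 called genes per list and comparison by size of difference with no overlap between libraries, any gene in a count of 5 or fewer, and the 5 genes most like CIITA, CD74, HLA-DMB and RFX5. HLA-DRA (outside RPMI-8226), ATF1, EP300, IRF1, PRDM1, PAX5, TAP1, TAP2, B2M, NLRC5 and BRD2 were named after their values were seen. Values of 3 genes that the rule names or a list holds are not reported here. Promoters are from RefSeq. Marker lists for plasma, B, myeloid and T cells checked the labels. Alternatives were pseudocounts of 0.1 and 0.01, no filter or one of 5 FPKM, TPM-like scaling, quantile normalization, no trend, a replicate block, the compared libraries only, each library left out and, chosen after seeing the data, the AMO1 CfzR libraries left out. Python 3.11.15 with pandas 2.3.3 and matplotlib 3.10.9 made tables and plots.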

Additional observations from a re-analysis of the deposited data

Results flagged for a closer look

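In 4 of the 9 genes, bortezomib resistance went with opposite directions in 2 lines, each AMO1 BtzR library lying above both AMO1 WT libraries and each RPMI-8226 BtzR library below both RPMI-8226 WT libraries. The log2 differences in AMO1 and RPMI-8226 were 3.49 and −1.39 for CIITA, 2.82 and −7.13 for CD74, 2.63 and −2.88 for HLA-DMA, and 3.96 and −1.89 for HLA-DMB. Over all tested genes, 4.61% were called higher in AMO1 BtzR and 7.92% lower in RPMI-8226 BtzR, and the share with both was not computed. In L363 BtzR and in ARH-77 BtzR, 0 members were called. The difference between the lines was not tested, because the genes were chosen with these comparisons known.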

How the results depend on the processing

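No called log2 difference of a member or pathway gene changed sign. Of members not called, 10 differences lying between −0.20 and 0.12 changed sign in 17 recomputations. Of 864 recomputed member differences, 801 moved by no more than the spread between replicates, but most of these could not have moved further. Filters, trend, block, compared libraries only and the AMO1 CfzR libraries left out do not alter a difference of group means. Leaving out a single library can move it by that spread at most. Of 252 such recomputations, 3 were counted as moved, among them HLA-DOB in L363 BtzR without its replicate 2 (−0.01 to 0.09). Of 63 member differences per setting, 15 moved with a pseudocount of 0.1, 19 with 0.01, 16 with TPM-like scaling and 10 with quantile normalization. Of 835 recomputed pathway calls, 807 held. The replicate block changed no call of these genes. Same-numbered replicates deviated together at r = −0.00554 in AMO1 BtzR and at 0.12 to 0.245 in the other comparisons, and the block was not used otherwise. Leaving out the AMO1 CfzR libraries changed no member count.

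With pseudocounts of 0.1 and 0.01 in place of 1, calls over all genes went from 1201 to 1919 and 2023 in AMO1 BtzR, from 217 to 494 and 510 in AMO1 CfzR against L363 WT, from 270 to 579 and 582 in L363 BtzR, from 253 to 546 and 517 in L363 CfzR, from 1809 to 2722 and 2846 in RPMI-8226 BtzR, and from 210 to 473 and 464 in ARH-77 BtzR, and with 0.01 from 2237 to 3413 in AMO1 CfzR against AMO1 WT. Pathway calls then went from 3 to 5 in AMO1 CfzR against L363 WT (0.1 only) and from 0 to 1 in ARH-77 BtzR, and member calls from 0 to 3 in L363 BtzR (0 to 1 with TPM-like scaling). In ARH-77 BtzR, TPM-like scaling gave 318 calls, 165 of them higher against 125 of 210, and the compared libraries only gave 0 (lowest adjusted p 0.0598, 1867 genes at an unadjusted p under 0.05). The latter setting left 4 of 8 pathway calls in L363 CfzR. Leaving out single libraries gave 3 to 7 pathway calls in L363 BtzR (3 without L363 BtzR replicate 1), 0 to 3 member calls in L363 BtzR, 1 to 4 member calls in L363 CfzR, and 199 to 343 calls over all genes in ARH-77 BtzR (343 without ARH-77 WT replicate 1, 144 higher and 199 lower). The causes were not tested.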
